A study of Rattus norvegicus with 20 samples.

Results

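The 6 precursors described here are the 3 genomic copies of rat mir-124 (rno-mir-124-1, rno-mir-124-2 and rno-mir-124-3) and the 3 copies of rat mir-9a (rno-mir-9a-1, rno-mir-9a-2 and rno-mir-9a-3). The species prefix is left out below. They were chosen by name from the 444 precursors counted, together with their 4 mature arms (miR-124-3p, miR-124-5p, miR-9a-5p and miR-9a-3p) from the 577 mature miRNAs counted. Small RNA was sequenced from Long Evans rats, all of them males of postnatal day 35 that had received no treatment and no alcohol. Brain was represented by 3 individually sequenced whole hemispheres and serum by 3 libraries, whereas each of 14 further tissues was a single library pooled from 3 rats. The pooled tissues were kidney, heart, large intestine, small intestine, stomach, testes, spleen, thymus, skin, subcutaneous abdominal fat, hindlimb skeletal muscle, lung, liver and pancreas. The question was which serum miRNAs could be traced to brain rather than to another tissue. A hemisphere holds neurons, glia and blood vessels together, and a pool carries no replicate error of its own.

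A miRNA precursor is a hairpin that is cut into a duplex of a 5′ and a 3′ arm, and usually one arm is loaded into the Argonaute protein and directs it to complementary sites in mRNAs. The seed, which is bases 2 to 8 of the arm, largely decides which mRNAs are bound. miR-124 is an abundant miRNA of differentiated neurons that represses non-neuronal transcripts, and miR-9 acts in neural progenitors and neurons, where it restrains progenitor regulators such as Hes1 and the nuclear receptor TLX.

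The sequences of the mir-9a copies are shown because they determine what a read can say about its origin. In the RefSeq table of the GRCr8 assembly the hairpin Mir9-1 lay at chr2:175974971-175975059, Mir9-2 at chr2:15933292-15933378 and Mir9-3 at chr1:142849400-142849489, all on the plus strand. Capitals mark the 5p and the 3p arm of each hairpin.
Mir9-1: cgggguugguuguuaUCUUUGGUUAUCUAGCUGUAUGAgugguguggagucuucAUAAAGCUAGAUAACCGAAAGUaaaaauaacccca
Mir9-2: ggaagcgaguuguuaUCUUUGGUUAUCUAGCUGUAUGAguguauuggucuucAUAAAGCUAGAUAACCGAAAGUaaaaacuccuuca
Mir9-3: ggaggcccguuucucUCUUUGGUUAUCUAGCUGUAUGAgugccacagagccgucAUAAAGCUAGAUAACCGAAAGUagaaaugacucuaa

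Both arms were identical in all 3 hairpins, so a read of an arm alone could not be assigned to a copy. The flanks and loops differed. Identity over the aligned hairpins was 83.1% between Mir9-1 and Mir9-2, 77.8% between Mir9-1 and Mir9-3, and 79.3% between Mir9-2 and Mir9-3. The mature arms are shown next with the seed in capitals, beside those of miR-9b, whose hairpins lie antisense to mir-9a at the same loci.
miR-9a-5p: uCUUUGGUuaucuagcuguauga
miR-9a-3p: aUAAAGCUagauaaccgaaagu
miR-9b-5p: uUCGGUUAucuagcuuuau
miR-9b-3p: aUACAGCUagauaaccaa

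The 4 arms shown carried 4 different seeds, and neither miR-9a seed occurred in any other of the 693 mature names of the RefSeq table. The deposited rows for mir-9b-1, mir-9b-2 and mir-9b-3 gave no independent measurement. Where a mir-9a copy had reads, the row of its antisense partner held a nearly fixed small fraction of them, and the highest value in any library was 1.14 reads.

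In the same assembly Mir9-1 overlapped the lncRNA gene LOC100911992 between Mef2d and Rhbg. Mir9-2 overlapped its host gene Mir9-2hg between Mef2c and Tmem161b, and Mir9-3 overlapped the lncRNA gene Mir9-3hg between Uqcrbl1 and Rhcg. Mir124-1 overlapped the lncRNA gene LOC102554677 between Msra and Kif13b. Mir124-2 overlapped the lncRNA gene LOC120100778 between Ythdf3 and Bhlhe22, whereas Mir124-3 overlapped no annotated gene and lay between Bhlhe23 and Ythdf1.

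Levels are given as RPM, the reads of a miRNA scaled to 1000000 reads of its own annotation, precursor or mature, in that library. Precursor totals were 388275 to 1204552 reads in the hemispheres, 162080 to 3685761 in the pools and 7556 to 10862 in serum, so that 3 reads corresponded to 2.49 to 7.73, 0.814 to 18.5 and 276 to 397 RPM. Where a library held 0 reads of a miRNA, a level up to its floor could not be seen, and a level from 1 or 2 reads lies below the floor. As a check of the tissue labels, a list of 14 neuronal precursors summed to 19279 to 24268 RPM in the hemispheres and to a median of 402.0 RPM over the pools. Thymus was the highest pool for this list, at 5429 RPM. The pancreas library held mir-122, the hepatocyte miRNA, at 14862 RPM against 14726 RPM in liver, with the exocrine precursors mir-216a and mir-217 at 0 reads and mir-216b at 4.96 RPM. It is called the library labelled pancreas below. Intervals are 95% Wilson or exact binomial intervals and cover counting error only. All members are compared in bulk RNA, where fewer cells of a type and less RNA per cell cannot be told apart.

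mir-124 was nearly absent outside the brain. The 3 precursors together reached 4499, 5425 and 4002 RPM in hemispheres 1, 2 and 3 (5419, 3096 and 1554 reads), a mean of 4642 ± 722 RPM (SD, n = 3). The 14 pools held 6 reads in total, of which 4 were in large intestine (1.09 RPM), 1 in stomach (1.26 RPM) and 1 in thymus (1.52 RPM), and the other 11 pools, among them the library labelled pancreas, held none. The lowest hemisphere was thus far above every pool, and the pools could not be ordered among themselves because their intervals overlapped. Brain contributed 99.9% of the sum over the 15 tissues. Among the 295 precursors passing the count filter of at least 10 reads in at least 3 libraries, the median contribution of brain was 14.1%, and 7 of them, including the 3 mir-124 copies, exceeded 99%.

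Set against the floor of 3 reads in each library, the brain mean was at least 251-fold above testes, the shallowest pool, and at least 3701-fold above lung among the 11 pools without a read. Even in testes 752 reads would have been counted at the brain level. In thymus, with its single read, the ratio of brain to pool was 3057 (counting interval 540 to 17320). In large intestine, the deepest library, the ratio was 4277 (1663 to 10999).

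mir-9a was the more abundant family in brain and was also detected in most other tissues. Its 3 precursors together reached 37528, 38475 and 31900 RPM in hemispheres 1, 2 and 3, a mean of 35967 ± 3555 RPM (SD, n = 3), which was 3.60% of all precursor reads. Hemisphere 3 was the lowest for both families. Among the pools 12 of 14 held at least 3 reads, with a median of 27.7 RPM over the 14. The highest pool was kidney at 154 RPM (interval 126 to 188, 94 reads), 234-fold below the brain mean. Heart followed at 104 RPM, large intestine at 65.7 RPM, small intestine at 61.9 RPM, stomach at 55.4 RPM and testes at 49.4 RPM. The kidney, heart and large intestine libraries held 94, 60 and 242 mir-9a reads, so these levels did not rest on a handful of reads.

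The lower part of the order ran from spleen (28.1 RPM) through thymus (27.3), skin (22.6), fat (18.4) and skeletal muscle (7.94) to lung at 5.85 RPM (14 reads). Each pool overlapped the next in this order except heart and large intestine, whose intervals of 80.9 to 134 and 57.9 to 74.5 RPM were separate. Liver and the library labelled pancreas held 0 mir-9a reads, which put the brain mean at least 2419-fold above the library labelled pancreas, which held the mir-122 level of liver, and at least 3932-fold above liver against a floor of 3 reads per library. Over the 12 pools with reads the brain mean was 234-fold to 6145-fold higher, with a median of 1004-fold. Brain contributed 98.4% of the sum over the 15 tissues.

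**Figure D1:**
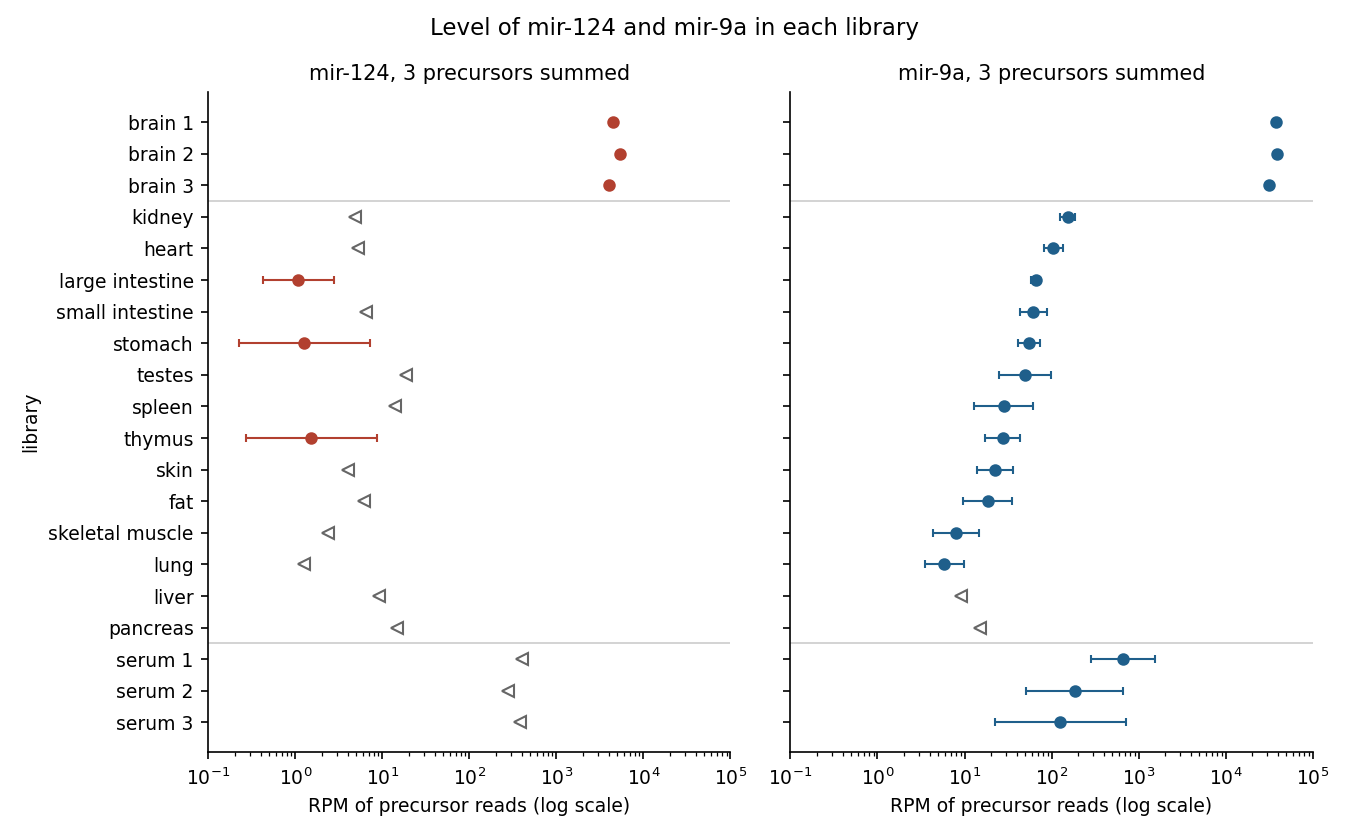
RPM of the 3 summed mir-124 precursors (left) and mir-9a precursors (right) in each of the 20 libraries, on a log axis. Filled points are measured levels with 95% Wilson intervals and open triangles mark the 3-read floor of libraries with 0 reads, which shows mir-124 reads in 3 of 14 pools and mir-9a reads in 12 of 14.

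After adding 1 RPM, taking log2 and centring on the median of the 15 tissues, brain lay 12.18 ± 0.22 above the median for mir-124 and 10.27 ± 0.15 for mir-9a (log2 units, SD over hemispheres, n = 3). These figures cannot rank the families, because the tissue median of mir-124 was 0 RPM and its value was set by the added 1 RPM, whereas that of mir-9a was 28.1 RPM.

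The copies of a family were counted at nearly equal levels. In hemispheres 1, 2 and 3, mir-124-1 stood at 1485, 1819 and 1450 RPM. The same hemispheres gave 1483, 1872 and 1252 RPM for mir-124-2, and 1531, 1735 and 1301 RPM for mir-124-3. All 3 copies were highest in hemisphere 2 and lowest in hemisphere 3. Ordered by brain mean they ranked 69 to 71 of the 444 precursors.

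For mir-9a-1 the levels were 12478, 12960 and 10531 RPM. Those of mir-9a-2 were 12651, 12829 and 10508 RPM, and those of mir-9a-3 were 12398, 12686 and 10861 RPM. The mir-9a copies ranked 21 to 23 in brain, and their means of 11990 ± 1286, 11996 ± 1292 and 11981 ± 981 RPM differed by less than the SD over hemispheres.

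As shares of the family, the mir-124 copies took 34.3% ± 1.7, 32.9% ± 1.6 and 32.8% ± 1.1 of the reads (SD, n = 3), and the mir-9a copies 33.3% ± 0.34, 33.3% ± 0.39 and 33.4% ± 0.60. An even share of 33.3% lay inside 8 of the 9 intervals for mir-124 and all 9 for mir-9a. The exception was mir-124-1 in hemisphere 3 at 36.2% (33.9 to 38.7). The way in which reads of the shared arms were divided among copies is not given in the sources used here, and near-equal shares therefore do not measure transcription of each locus.

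In the 5 pools with at least 20 mir-9a reads (kidney, heart, large intestine, small intestine and stomach) the even share again lay inside 15 of 15 intervals. The shares ranged more widely there, from 25.0% to 43.2%, on fewer reads. Brain and these pools differed by 2.77 percentage points for mir-9a-1 (exact two-sided permutation test over libraries, p = 0.179), by -5.11 points for mir-9a-2 (p = 0.25) and by 2.34 points for mir-9a-3 (p = 0.286), in each case brain minus pools. None of the 3 passed after Benjamini-Hochberg adjustment (exact permutation p = 0.286 for each), and the smallest p this design allows is 0.0357. The 3 shares of a library are not independent of each other. Because reads of the shared arms cannot be assigned to a copy, neither these intervals nor these tests can tell whether the loci differ between tissues.

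**Figure D2:**
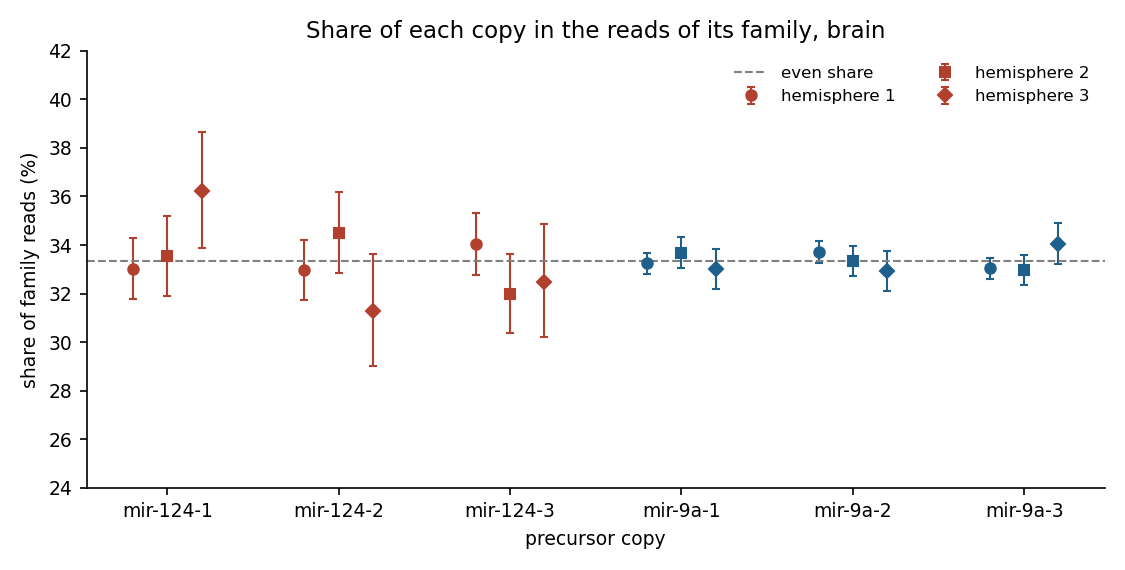
Share of each precursor copy in the reads of its family (percent, on an axis that does not start at 0), for hemispheres 1, 2 and 3, with 95% Wilson intervals and a dashed line at the even share of 33.3%. The interval of mir-124-1 in hemisphere 3 lies above the line and the other 17 include it.

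The dominant arm was the 3p arm for mir-124 and the 5p arm for mir-9a. miR-124-3p stood at 2929, 3675 and 2617 RPM of mature reads in hemispheres 1, 2 and 3 (mean 3074 ± 544, SD, n = 3) and ranked 40 of the 577 mature miRNAs in brain. miR-124-5p, the passenger arm, stood at 21.6, 20.6 and 15.3 RPM, from 22, 10 and 5 reads. Outside brain miR-124-3p had 1 read in thymus and 1 in large intestine, and miR-124-5p had none in any pool. At the brain level of miR-124-5p the shallowest pool, testes, would have held 1.87 reads, so its absence was not informative there. It said little in the library labelled pancreas, spleen, liver and fat either, where 2.41, 3.15, 4.05 and 6.09 reads would have been counted. Large intestine, the deepest library, would have held 54.2.

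miR-9a-5p was among the most abundant mature miRNAs of brain, at 42548, 43310 and 36569 RPM (mean 40809 ± 3692, SD, n = 3), which was 4.08% of mature reads and rank 8 of 577. In the pools it was highest in kidney at 233 RPM (interval 189 to 286), with heart at 132 RPM and large intestine at 84.8 RPM. Here neither kidney and heart nor heart and large intestine overlapped. Kidney and heart held 88 and 58 reads of miR-9a-5p among 378428 and 440112 mature reads. On the precursors they held 94 and 60 mir-9a reads among 611610 and 576001, and there their intervals overlapped. The separation of kidney from heart thus depended on which total the reads were scaled to. miR-9a-3p stood at 798, 840 and 391 RPM (mean 677 ± 248, SD, n = 3) and ranked 83. It was the most variable of the main readouts, with a coefficient of variation of 36.7% over hemispheres against 9.05% for miR-9a-5p, with hemisphere 3 the low one. Outside brain it had 2 reads in heart and 1 in large intestine.

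The minor arm made up 0.731%, 0.557% and 0.580% of mir-124 arm reads in hemispheres 1, 2 and 3, or 0.653% (0.474 to 0.899) over all of them. For mir-9a the minor arm made up 1.84%, 1.90% and 1.06%, a mean of 1.60% ± 0.47 (SD, n = 3). The hemispheres overlapped for mir-124. For mir-9a the interval of hemisphere 3 (0.890 to 1.26) was separate from those of hemisphere 1 (1.72 to 1.97) and hemisphere 2 (1.73 to 2.10), so the arm ratio varied between hemispheres beyond counting error. In the 5 pools with at least 20 arm reads, heart had the highest share of miR-9a-3p at 3.33% (2 of 60 reads, 0.919 to 11.4) and large intestine had 0.415% (1 of 241), and the other 3 had none. Brain exceeded these pools by 0.851 percentage points on average, a difference that did not pass an exact two-sided permutation test over libraries (p = 0.464, with 0.0357 as the smallest p possible).

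The families differed in the ratio of reads counted on mature arms to reads counted on precursors. For mir-124 the arm reads came to 55.5%, 57.9% and 55.5% of the precursor reads in hemispheres 1, 2 and 3 (56.3% ± 1.4, SD, n = 3). The precursor count of 10069 reads exceeded the arm count by 4404. This is a difference between 2 separate counts, and the place of those reads on the hairpin was not seen. For mir-9a they came to 97.7% ± 0.083 (SD, n = 3). The hemispheres did not overlap between the families. Over 101 families with at least 1000 precursor reads in brain the median was 85.6%, with quartiles of 46.3% and 94.3%, and 29 families lay below mir-124 and 10 above mir-9a. One further family, let-7d, was set aside after its value was seen, because its mature reads came to 534% of its precursor reads. The count of miR-124-3p in the mature annotation is therefore lower relative to the count of its precursors than that of miR-9a-5p is.

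**Figure D3:**
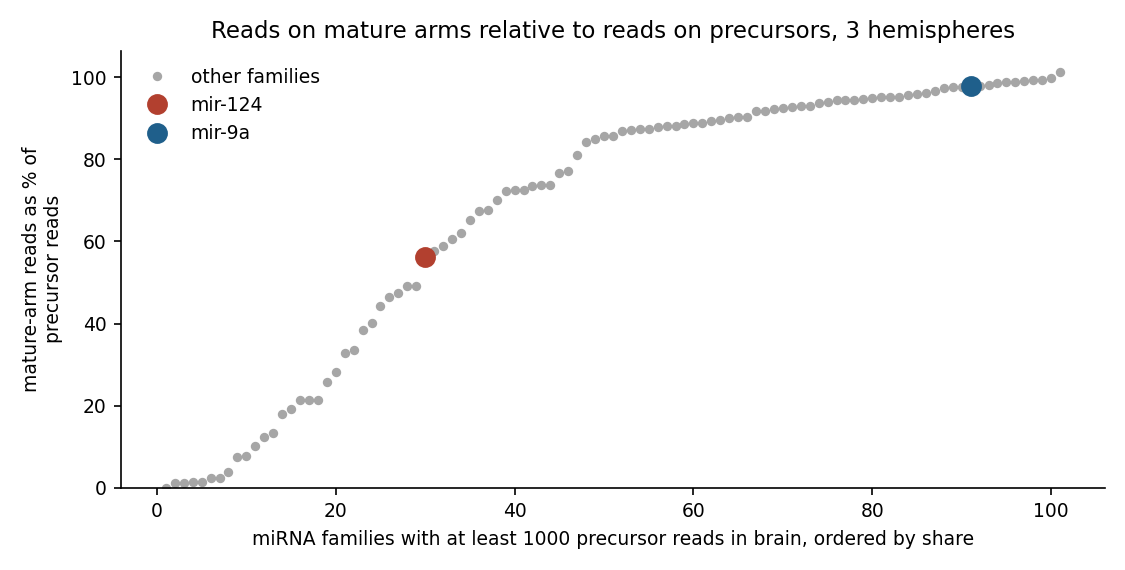
Reads counted on mature arms as a percent of the reads counted on the precursors, summed over the 3 hemispheres, for 101 miRNA families ordered by this share. mir-124 lies at 56.3% with 29 families below it, and mir-9a lies at 97.7% with 10 above it.

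The balance of the families was set side by side in each library. It is a ratio of reads and not of molecules, and it was not tested, because each pool was a single library. In hemispheres 1, 2 and 3 mir-124 made up 10.7%, 12.4% and 11.1% of the reads of both families (11.4% ± 0.86, SD, n = 3), so that 8.34, 7.09 and 7.97 mir-9a reads were counted for each mir-124 read. In large intestine mir-124 made up 1.63% (exact interval 0.445 to 4.11), from 4 reads where 30.6 would have been counted at the brain share. Kidney had 0 mir-124 reads where 11.9 would have been counted (upper bound 3.85%), and heart had 0 where 7.59 would have been counted (upper bound 5.96%).

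The intervals of large intestine, kidney and heart lay below all 3 hemispheres. Those of stomach (2.22%, 0.056 to 11.8) and small intestine (0%, upper bound 11.9%) overlapped brain, and the remaining pools had fewer than 20 mir-9a reads. The mir-9a reads of the first 3 tissues were therefore not accompanied by mir-124 reads in the proportion found in brain.

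**Figure D4:**
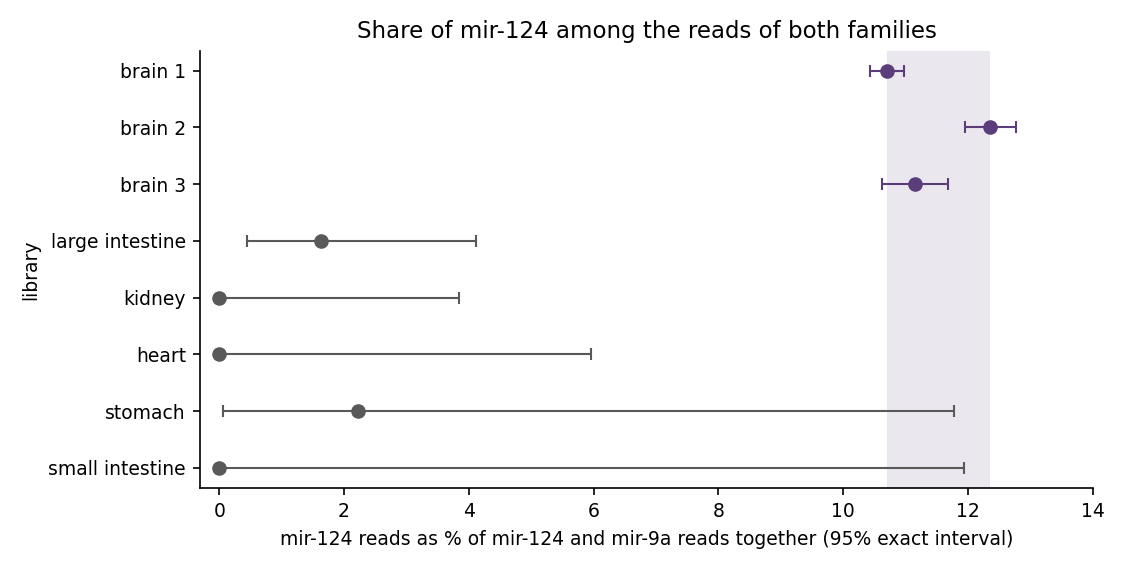
mir-124 reads as a percent of mir-124 and mir-9a reads together, with 95% exact intervals, in the 3 hemispheres and the 5 pools with at least 20 mir-9a reads. The shaded band is the range of the hemispheres, 10.7% to 12.4%, and the intervals of large intestine, kidney and heart end below it.

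For the comparison of the 3 hemispheres with the 14 pools, all precursors were fitted together with edgeR (quasi-likelihood test, Benjamini-Hochberg adjustment). Of 295 precursors tested 71 were higher in brain, 24.1% of those tested, and 55 were lower. All 6 members were among those higher. The log2 fold change of brain over pools was 11.76 (SE 0.59) for mir-124-3, 11.28 (SE 0.67) for mir-124-1 and 10.84 (SE 0.79) for mir-124-2, the highest 3 values of all 295 (edgeR adjusted p = 3.7e-11, 3.4e-10 and 5.1e-09). These folds rest on the prior count of the fit, since no pool had 10 reads of a mir-124 copy and most had 0, and a precursor that passed the count filter through brain alone had to differ.

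The mir-9a copies had 4 or 5 pools with at least 10 reads. Their log2 fold changes were 8.39 (SE 0.97) for mir-9a-1, 8.35 (SE 0.97) for mir-9a-3 and 8.07 (SE 0.93) for mir-9a-2, each with an edgeR adjusted p of 1.8e-06, and they ranked 6 to 8. Every hemisphere was above every pool for all 6 members, which also held for 107 of the 295 precursors (36.3%). The copies share their arms and are not separate results. The hemispheres are 1 tissue, and the p-values can be too small, measuring the spread between these libraries. With the 3 hemispheres summed to 1 brain library, which is then assumed to vary like the pools, the number of precursors called fell from 126 to 40. In that fit the mir-9a copies had an edgeR adjusted p of 3.3e-05, a value without replicates of brain behind it.

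**Figure D5:**
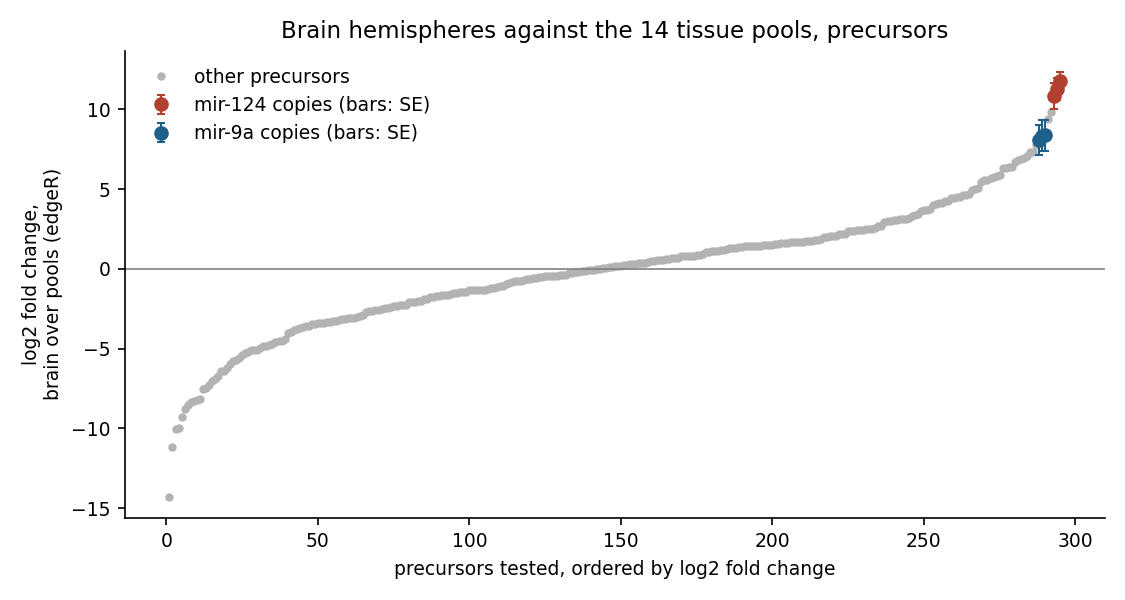
log2 fold change of the 3 hemispheres over the 14 pools for the 295 precursors tested with edgeR, in order of size, with SE bars for the members. The mir-124 copies (10.84 to 11.76) take the highest 3 places and the mir-9a copies (8.07 to 8.39) places 6 to 8.

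In the mature annotation 58 of 290 miRNAs tested were higher in brain (20.0%) and 70 were lower. Of the 4 arms, 3 could be tested and were among those higher. The log2 fold change was 11.68 (SE 0.68) for miR-124-3p, rank 1, and 9.07 (SE 0.78) for miR-9a-3p, rank 3, with edgeR adjusted p of 2.9e-10 and 4.4e-08. Neither had 10 reads in any pool, and both had 0 reads in 12 of the 14. Their folds and ranks therefore rest on the prior count, and arms that passed the filter through brain alone had to differ. miR-9a-5p, with at least 10 reads in 9 pools, had a log2 fold change of 8.03 (SE 0.98, edgeR adjusted p = 3.0e-06) and ranked 4. miR-124-5p had too few reads for the filter.

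In serum, mir-124 was not detected. The 3 serum libraries held 0 mir-124 reads among 26348 precursor reads, where 122 would have been counted at the brain level, which placed the serum level at least 40.8-fold below brain against a floor of 3 reads over the group. miR-124-3p likewise had 0 of 17336 mature reads and was at least 17.8-fold lower. mir-9a was present at the limit of detection, with 5, 2 and 1 reads in serum 1, 2 and 3 (662, 184 and 126 RPM). Over the group this was 304 RPM (interval 154 to 599) or 0.844% of the brain mean, 118-fold lower (counting interval 60.0 to 234). Without serum 1, which held 5 of the 8 reads, 3 reads in 18792 remained, a level of 160 RPM (54.3 to 469) that was 225-fold below brain (76.6 to 662). miR-9a-5p likewise had 8 reads over the group, and miR-9a-3p had none, where 11.7 would have been counted at its brain level.

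The serum level of mir-9a over the group overlapped that of kidney and its interval lay above those of the other pools, but without serum 1 it also overlapped those of heart, large intestine, small intestine, stomach, testes and spleen, and the intervals of serum 2 (50.5 to 671 RPM) and serum 3 (22.3 to 714 RPM) also held the levels of heart, large intestine and small intestine. For mir-124 the serum floor over the group, 114 RPM, was above the level of every pool, so serum could not be told from the non-brain tissues.

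In the fit of brain against serum 105 of 235 precursors were higher in brain (44.7%) and 44 were lower by edgeR, with a median log2 fold change of 2.15 over all tested. All 6 members were among those higher, and every hemisphere was above every serum library, as for 65.5% of the precursors. No serum library had 10 reads of any member, so passing the filter through brain alone fixed this direction. The log2 fold change was 7.16 (SE 0.53) for mir-9a-1, 7.16 (SE 0.45) for mir-9a-2 and 6.17 (SE 0.38) for mir-9a-3, with edgeR adjusted p of 2.5e-07, 6.5e-08 and 5.7e-08. For the mir-124 copies, whose serum values were all 0, edgeR gave adjusted p of 2.7e-05 to 4.8e-05. The 2 reads of mir-9a-1 came from serum 1, and without that library its fitted log2 fold change became 15.38 and that of mir-9a-2 7.73.

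In the mature annotation 112 of 212 miRNAs were higher in brain than in serum (52.8%) and 30 were lower by edgeR. miR-9a-5p had a log2 fold change of 6.88 (SE 0.58, edgeR adjusted p = 2.8e-13), against a median of 3.86 over all mature miRNAs tested, and 7.99 without serum 1. None of these arms had 10 reads in a serum library, so the direction was again fixed by passing the filter through brain alone. miR-124-3p and miR-9a-3p had 0 serum reads, and their edgeR adjusted p were 2.6e-09 and 1.2e-05.

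Other neuronal miRNAs were mostly higher in brain than in the pools too, with fitted log2 fold changes below those of the members. Where the pools held almost no reads, as for mir-124, these folds rest on the prior count and do not rank the miRNAs. Of the 14 precursors in the neuronal list, 12 were higher in brain than in the pools by edgeR and none was lower. mir-134 and mir-218a-1 did not pass. Of the list 85.7% were higher against 24.1% of all precursors, with a median log2 fold change of 5.58 against 0.17 over all 295. But mir-137, mir-138-2 and mir-383 reached at most 1.26, 1.33 and 4.69 RPM in any pool. In testes, their highest pool, mir-129-1 and mir-129-2 stood at 12.3 and 18.5 RPM, where 3 reads are 18.5 RPM. These precursors passed the count filter through brain alone, which fixed their direction. The share and the median are therefore no test of the list. The most abundant was mir-128-1 at 12452 ± 1811 RPM in brain (SD, n = 3), which differed from each mir-9a copy by less than its SD, but thymus held 3547 RPM of it. Next were mir-128-2 at 3489 ± 286 RPM and mir-138-1, a miRNA known for its part in dendritic spine size, at 1456 ± 296 RPM. Each mir-124 copy differed from mir-138-1 by less than the SD of mir-138-1 in brain, whereas the highest pool held 103 RPM of mir-138-1 and no more than 1.52 RPM of a mir-124 copy. Against serum 8 of the 14 were higher (57.1%) and none was lower, beside 44.7% higher among all precursors tested. The 14 together summed to 1289 to 2018 RPM in the serum libraries, where 3 reads are 276 to 397 RPM. Most of them therefore passed the count filter through brain, and this count is no test of the list.

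The oligodendrocyte list, which marks myelinating glia in the same hemispheres, held 4 precursors, but the row of mir-219b was a fixed 13.5% of mir-219a-2 in all 11 libraries with reads and is no separate measurement. Of the other 3, mir-338 and mir-219a-2 were higher in brain than in the pools by edgeR and mir-219a-1 did not pass (66.7% higher against 24.1% of all precursors). But mir-219a-2 reached at most 4.01 RPM in any pool and passed the count filter through brain alone. Its call was therefore fixed, and this share is no test of the list. Against serum both of the 2 tested were higher, beside 44.7% of all precursors. The whole list summed to at most 265 RPM in a serum library, less than the 276 to 397 RPM of 3 reads. Both therefore passed the count filter through brain alone, and their being higher is no test of the list. mir-338 stood at 3484 ± 933 RPM and mir-219a-2 at 1815 ± 109 RPM in brain (SD, n = 3). The fitted log2 fold change of mir-219a-2 over the pools (9.38) lay between those of mir-124 and mir-9a. Like the mir-124 folds it rests on the prior count, so this order does not rank the miRNAs.

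Likeness to the members over the 15 tissues was described by Pearson's r of log2 values with 1 RPM added, over 289 other precursors and 287 other mature miRNAs, without a test, since brain alone can set r where the other tissues are near 0. For the mir-124 sum the row of mir-219b had the highest r (0.992), but as a fixed part of mir-219a-2 it fell under the added 1 RPM outside brain and is no separate miRNA here. It was followed by mir-137 (0.988), mir-3543-1 (0.988), mir-764 (0.982) and mir-135a (0.980). For the mir-9a sum they were mir-212 (0.902), mir-384 (0.850), mir-129-1 (0.831), mir-3099 (0.810) and mir-219a-2 (0.807). None of these 5 had kidney as its highest pool, as mir-9a did.

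Among mature miRNAs miR-1224 (0.991), miR-764-3p (0.985), miR-219b (0.970), miR-137-3p (0.961) and miR-325-3p (0.957) were most alike miR-124-3p. For miR-9a-5p they were miR-384-5p (0.826), miR-219a-2-3p (0.811), miR-129-5p (0.810), miR-212-3p (0.798) and miR-3099 (0.791). The mir-124 and mir-9a sums had r = 0.803 with each other over the same 15 tissues, which share brain as the highest point.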

How the data were processed

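TruSeq small RNA libraries were run by the authors on a MiSeq. According to the methods, bases of low quality (phred under 20) were removed, Bowtie placed the remaining sequence on the Rn5 genome, and miRBase and RefSeq supplied the miRNA features. The submitters' processing notes also name Partek. They deposited estimated counts (expected counts, 13.0% of precursor values not whole), not normalized, for 1409 features per library in 3 annotations. Each feature was expressed as RPM of the total of its own annotation. The members and gene lists were chosen with earlier results of these data known, among them the brain level of mir-124, so no pattern here is independent support for those.

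Counts were rounded and tested with edgeR 4.0.16 in R 4.3.3 (quasi-likelihood, TMM, at least 10 counts in at least 3 libraries, Benjamini-Hochberg threshold 0.05, serum left out of the fit against pools). The hemispheres and sera came from 3 rats, but the labels tie no library to an animal, so p-values measure only the spread between these samples, which may be technical. Replicate libraries differed beyond sampling noise (chi-square per degree of freedom 7.20 to 62.2), so none was counted as a duplicate. Alternatives were DESeq2 1.42.0, other scalings, no filter, 0.1 and 10 RPM added, each library left out with the features tested kept, brain summed, RefSeq rows, other read minimums and the replicate block. Named are the members, mir-9b and the 5 most alike miRNAs per family sum and main arm. The 3 most abundant per neuronal or oligodendrocyte list are named too. Named after their values were seen were let-7d, mir-122, mir-216a, mir-217, mir-134, mir-218a-1, mir-219a-1, mir-138-2, mir-383 and mir-129-2. The tests were checked on simulated counts in which no feature was set to be confined to brain. That check does not cover the folds or p-values of the members. Sequences were from RefSeq (GRCr8), in which the 3 mir-9a hairpins matched, and mir-124 sequences were not used here. Levels and figures used Biopython 1.88, Matplotlib 3.10.9, SciPy 1.17.1, NumPy 2.4.6 and pandas 2.3.3 under Python 3.11.15. The human, drinking-model and stem cell experiments were not analysed here.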

Additional observations from a re-analysis of the deposited data

How the results depend on the processing

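Under all alternatives run, the 18 tested member comparisons kept their direction and side of the threshold (297 of 297 values), but in 14 of the 18 no library outside brain had 10 reads of the member, so that the count filter fixed the outcome. The other 4 are the mir-9a copies and miR-9a-5p against the pools. Counts of calls moved more. With brain summed to 1 library, the calls against the pools went from 126 to 40 precursors and from 128 to 42 mature miRNAs, all 40 and all 42 higher in brain, with fewer samples by construction. Leaving out 1 library gave 60 to 145 precursors, with 60, 69 and 78 without hemisphere 1, 2 and 3, and 71 to 152 mature miRNAs, with 71, 73 and 77 without them. The log2 excess of brain over the tissue median depended on the added RPM and the scaling. For mir-124 it was 15.50 with 0.1 RPM, 8.86 with 10 RPM, 11.24 with TMM and 11.42 with RLE scaling. For mir-9a it was 9.88 with 10 RPM, 9.69 with TMM and 9.20 with RLE. For miR-124-3p it was 14.91, 8.27, 10.61 and 11.16 in the same order as for mir-124, and for miR-124-5p 7.59, 1.54, 3.43 and 3.93. For miR-9a-5p it was 9.78 with 10 RPM, 8.93 with TMM and 9.53 with RLE, and for miR-9a-3p 12.72 with 0.1 RPM, 6.10 with 10 RPM and 8.44 with TMM. Where the tissue median is 0 RPM, the added RPM sets the value by construction, and scaling enters only through the factors of the hemispheres. For precursors these factors were 1.77, 1.97 and 2.03 with TMM and 1.68, 1.77 and 1.60 with RLE. For mir-9a and miR-9a-5p, whose tissue medians were above 0, the cause of the shifts with scaling was not tested. The labels give brain and serum the same replicate numbers without saying that a number marks an animal. Same-numbered libraries did not deviate together (r = 0.104, -0.106 and -0.080 over 75 precursors), and the replicate block gave 141 calls against serum in place of 149 precursors and 125 in place of 142 mature miRNAs, with no member call changed. Leaving out each serum library, an alternative chosen after seeing the data, gave 160 to 387 RPM for mir-9a in serum, and the oligodendrocyte list was also counted without mir-219b. Serum depth limits every serum value here, since 3 reads are 114 RPM even over the 3 libraries together.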
